A study of Mus musculus with 6 samples.

Results

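Genes that mark the granules, cytosol and surface of neutrophils were followed through RNA sequencing of injured mouse liver. The 10 genes were chosen by name, with earlier results of these data known. They are the calgranulins S100a8 and S100a9, the granule genes Ltf, Ngp and Camp, the secreted proteins Retnlg and Slpi, and the receptors Trem1, Clec4d and Clec4e. All 10 are among the 54532 genes counted. In the IRF8-cKO group, C57BL/6 mice lacked IRF8, interferon regulatory factor 8, in hepatocytes (the libraries IRF8-cKO-71 and IRF8-cKO-88, with IRF8-cKO-106). They were set against wild-type C57BL/6 mice (the libraries WT-14 and WT-44, with WT-77), so each group had 3 libraries. In both groups liver lobes had their blood supply interrupted for 1 h (warm ischemia) and restored for 12 h (reperfusion), and the injured lobe was sequenced. No uninjured liver is among the samples. The sources used here do not give the Cre driver of the deletion, the age or sex of the mice, or whether each library is a separate animal, so p-values measure the spread between these libraries.

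Neutrophils enter the reperfused liver within hours of injury. They carry antimicrobial proteins in granules that are filled in sequence while the cells mature in bone marrow, and S100A8 and S100A9 fill much of their cytosol as a heterodimer. S100A8 and S100A9 bind metal ions and, once released, act on Toll-like receptor 4. TREM1 and the C-type lectins encoded by Clec4d and Clec4e are surface receptors of neutrophils and macrophages that signal through ITAM-bearing adaptor proteins. In RNA from a whole liver lobe, fewer cells of a type and less RNA per cell cannot be told apart.

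The genes lie on 6 chromosomes, 3 of which hold more than 1 of them (coordinates of mm10, as in the count table). S100a8 (ENSMUSG00000056054, chromosome 3, 90668978 to 90670035, plus strand) and S100a9 (ENSMUSG00000056071, chromosome 3, 90692632 to 90695721, minus strand) are 22.6 kb apart with no protein-coding gene wholly between them. Clec4d (ENSMUSG00000030144, chromosome 6, 123262111 to 123275265, plus strand) and Clec4e (ENSMUSG00000030142, chromosome 6, 123281789 to 123289870, minus strand) are 6.52 kb apart, also with 0 such genes between them. The granule genes share chromosome 9 without being neighbours. Camp (ENSMUSG00000038357, 109847379 to 109849617, minus strand) lies 570.1 kb from Ngp (ENSMUSG00000032484, 110419747 to 110423012, plus strand), with 8 protein-coding genes between. Ltf (ENSMUSG00000032496, 111019271 to 111042767, plus strand) follows 596.3 kb further on. Retnlg (ENSMUSG00000022651, 48872621 to 48874496, plus strand) is on chromosome 16, Slpi (ENSMUSG00000017002, 164354070 to 164389095, minus strand) on chromosome 2 and Trem1 (ENSMUSG00000042265, 48232768 to 48246924, plus strand) on chromosome 17. In GENCODE M21, exons of 9 of the 10 genes overlap no exon of another gene. Slpi shares 1 base with the microRNA gene Mir7678.

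The stretches just upstream of the calgranulin and granule genes are shown because S100a8 and S100a9 had the most reads of the 10 genes in IRF8-cKO, and Ltf, Ngp and Camp the lowest ratios of IRF8-cKO to WT. Each holds 150 bases (89 for Camp) from the window before the RefSeq start site (GRCm38.p6), ending where the first annotated exon begins, read in the direction of the gene. They span chr3:90668828-90668977 on the plus strand for S100a8, chr3:90695722-90695871 on the minus strand for S100a9 and chr9:111019121-111019270 on the plus strand for Ltf. Those of Ngp and Camp span chr9:110419597-110419746 on the plus strand and chr9:109849618-109849706 on the minus strand. Capitals mark the letters TTNNGNAA on either strand, the core of sites bound by C/EBP transcription factors, a family known for driving granule genes in maturing neutrophils.
S100a8: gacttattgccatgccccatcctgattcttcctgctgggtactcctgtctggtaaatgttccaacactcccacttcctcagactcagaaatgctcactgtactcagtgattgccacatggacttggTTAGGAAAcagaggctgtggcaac
S100a9: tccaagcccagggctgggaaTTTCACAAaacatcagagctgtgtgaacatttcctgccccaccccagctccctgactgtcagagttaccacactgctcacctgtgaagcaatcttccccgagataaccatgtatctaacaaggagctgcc
Ltf: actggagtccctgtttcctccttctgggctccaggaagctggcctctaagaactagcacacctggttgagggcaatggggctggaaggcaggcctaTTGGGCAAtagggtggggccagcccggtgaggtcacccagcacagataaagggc
Ngp: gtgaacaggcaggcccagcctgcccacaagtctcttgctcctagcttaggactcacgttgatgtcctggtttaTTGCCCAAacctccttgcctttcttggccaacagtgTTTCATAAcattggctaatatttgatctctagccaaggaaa
Camp: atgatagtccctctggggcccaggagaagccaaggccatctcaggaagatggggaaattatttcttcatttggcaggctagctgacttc
In the full window of 250 bases before to 50 bases after the start site, these letters occurred in 9 of the 10 genes, all except Camp, against 40.7% of 32851 mouse promoters of the same length. For Camp only the 89 bases shown lie upstream of the first annotated exon. Its upstream stretch was therefore mostly not searched, for these or the other letters. The ETS core GAGGAA, of the kind bound by PU.1, occurred in 5 of the 10 (S100a8, Ltf, Trem1, Clec4d and Clec4e), against 28.3% of promoters. The IRF motif, GAAA followed after 2 bases by another GAAA, occurred in Clec4d and no other member, against 3.44% of promoters. The composite of the kind bound by PU.1 together with IRF proteins, GGAA followed after 2 bases by GAAA, occurred in 0 of the 10, against 2.72%. NF-kB letters, GGG and CC with 5 bases between, occurred in Ltf and Camp, for Camp only after the start site, against 50.8%. AP-1 letters TGANTCA occurred in 0 of the 10, against 7.81%. The STAT letters TTCNNNGAA occurred in Trem1, against 8.3%, and TATAAA in S100a8, S100a9 and Clec4e, against 13.6%. All were searched on both strands, so a single stretch can match more than 1 motif, as the ETS and ETS-IRF letters could. The promoters set beside the members were matched for length but not for base composition. Letters in a window describe the sequence and do not show a bound site.

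Libraries held 14758237 to 16805830 counted reads, of which the 10 genes took 571, 931 and 483 in IRF8-cKO-71, in IRF8-cKO-88 and in IRF8-cKO-106 and 4344, 2838 and 3967 in WT-14, in WT-44 and in WT-77. Expression is given as CPM, the count scaled to a fixed library total after TMM adjustment. Irf8, the targeted gene, stood at 4.16 to 6.71 CPM in IRF8-cKO and 9.30 to 10.3 CPM in WT without passing the genome-wide test (log2 fold change -0.81, SE 0.33, adjusted p = 0.174 in edgeR's quasi-likelihood test). A gene-level count from mixed tissue does not show an exon deletion. The label of injured liver lobe was checked against 12 hepatocyte markers, all of which were tested and 0 of which passed (1 lower at an unadjusted p under 0.05 and by DESeq2, 0 by limma-voom), with summed levels of 80336 to 110349 CPM in IRF8-cKO and 101047 to 145438 CPM in WT. The neutrophil label of the genes was checked against other neutrophil genes, which did not all stand on the same side. Csf3r stood at 2.31 to 4.68 CPM in IRF8-cKO and 5.02 to 12.4 CPM in WT, and Cxcr2 at 2.04 to 3.88 CPM and 5.02 to 11.4 CPM in the same order. Neither passed edgeR's test (log2 fold change -1.29, adjusted p = 0.128 for Csf3r and -1.69, adjusted p = 0.0789 for Cxcr2). Ly6g, a defining surface marker of mouse neutrophils, had 0 to 3 reads per IRF8-cKO library and 4 to 7 reads per WT library and was too low to be tested. Fpr1, a formyl peptide receptor, stood at 1.99 to 4.87 CPM in IRF8-cKO and 1.73 to 2.02 CPM in WT (log2 fold change 0.97, adjusted p = 0.227 in edgeR's test), and Cxcr1, a chemokine receptor, had 13 reads in IRF8-cKO and 2 in WT.

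All 10 genes had lower mean levels in IRF8-cKO, and in CPM each stood lower in every IRF8-cKO library than in every WT library. Of all 13134 genes tested, 14.5% were likewise lower in every IRF8-cKO library. For Trem1 the separation rested on the TMM adjustment, and for Camp on 1 read in IRF8-cKO-106 against 2 in WT-14. Of the 10 genes 9 passed the filter on low counts, and 6 fell in edgeR's quasi-likelihood test (adjusted p under 0.05): S100a8, S100a9, Ltf, Ngp, Retnlg and Slpi. The test called 0.937% of all genes lower and 0.449% higher. Of the 9 tested members 8 had a log2 fold change at or below -2, all but Trem1, against 2.55% of all genes. The receptors Trem1, Clec4d and Clec4e did not pass, and Camp had too few reads to be tested. Ltf, Ngp and Trem1 met the filter in all WT libraries but not in all IRF8-cKO libraries, so their entry into the test depended on the group where they were high. The other 6 tested genes reached the filter in all 6 libraries. All 6 had a log2 fold change at or below -2, and 4 of them fell (S100a8, S100a9, Retnlg and Slpi). Because the genes were chosen with earlier results of these data known, these shares describe them and are no test.

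S100a8, which encodes calgranulin A, was counted 193, 215 and 144 times in IRF8-cKO-71, in IRF8-cKO-88 and in IRF8-cKO-106, or 11.9, 13.2 and 6.66 CPM. The WT libraries, in the order WT-14, then WT-44, then WT-77, had 960, 717 and 1034 reads, or 58.8, 61.8 and 68.6 CPM. The WT libraries lay close together and the lowest of them stood 4.44 times above the highest IRF8-cKO library. The group means were 10.6 ± 3.47 CPM in IRF8-cKO and 63.1 ± 5.04 CPM in WT (SD, n = 3 each). S100a8 fell (log2 fold change -2.57 ± 0.32 SE, adjusted p = 0.0243 in edgeR's test), and by p-value it ranked 2 among all genes tested.

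S100a9, encoding the partner calgranulin B, stood at 15.1, 16.82 and 7.87 CPM in IRF8-cKO-71, in IRF8-cKO-88 and in IRF8-cKO-106, against 68.7, 61.0 and 76.0 CPM in WT-14, in WT-44 and in WT-77. Again IRF8-cKO-106 was lowest, and the groups were separated by a gap of 3.62 times between the nearest libraries. S100a9 fell too, with a value of -2.37 ± 0.33 SE on the log2 scale (adjusted p = 0.0243 in edgeR's test). The pair followed each other closely: centred on each gene's own mean, their log2 CPM profiles over the 6 libraries differed by a root mean square of 0.126, the smallest value among the 36 pairs of tested members. The log2 ratio of S100a8 to S100a9 reads within a library was -0.31 ± 0.06 in IRF8-cKO and -0.12 ± 0.13 in WT (SD, n = 3 each). The difference of -0.19 gave p = 0.1 in an exact two-sided permutation test, which is the smallest value that 3 against 3 libraries allow.

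**Figure D1:**
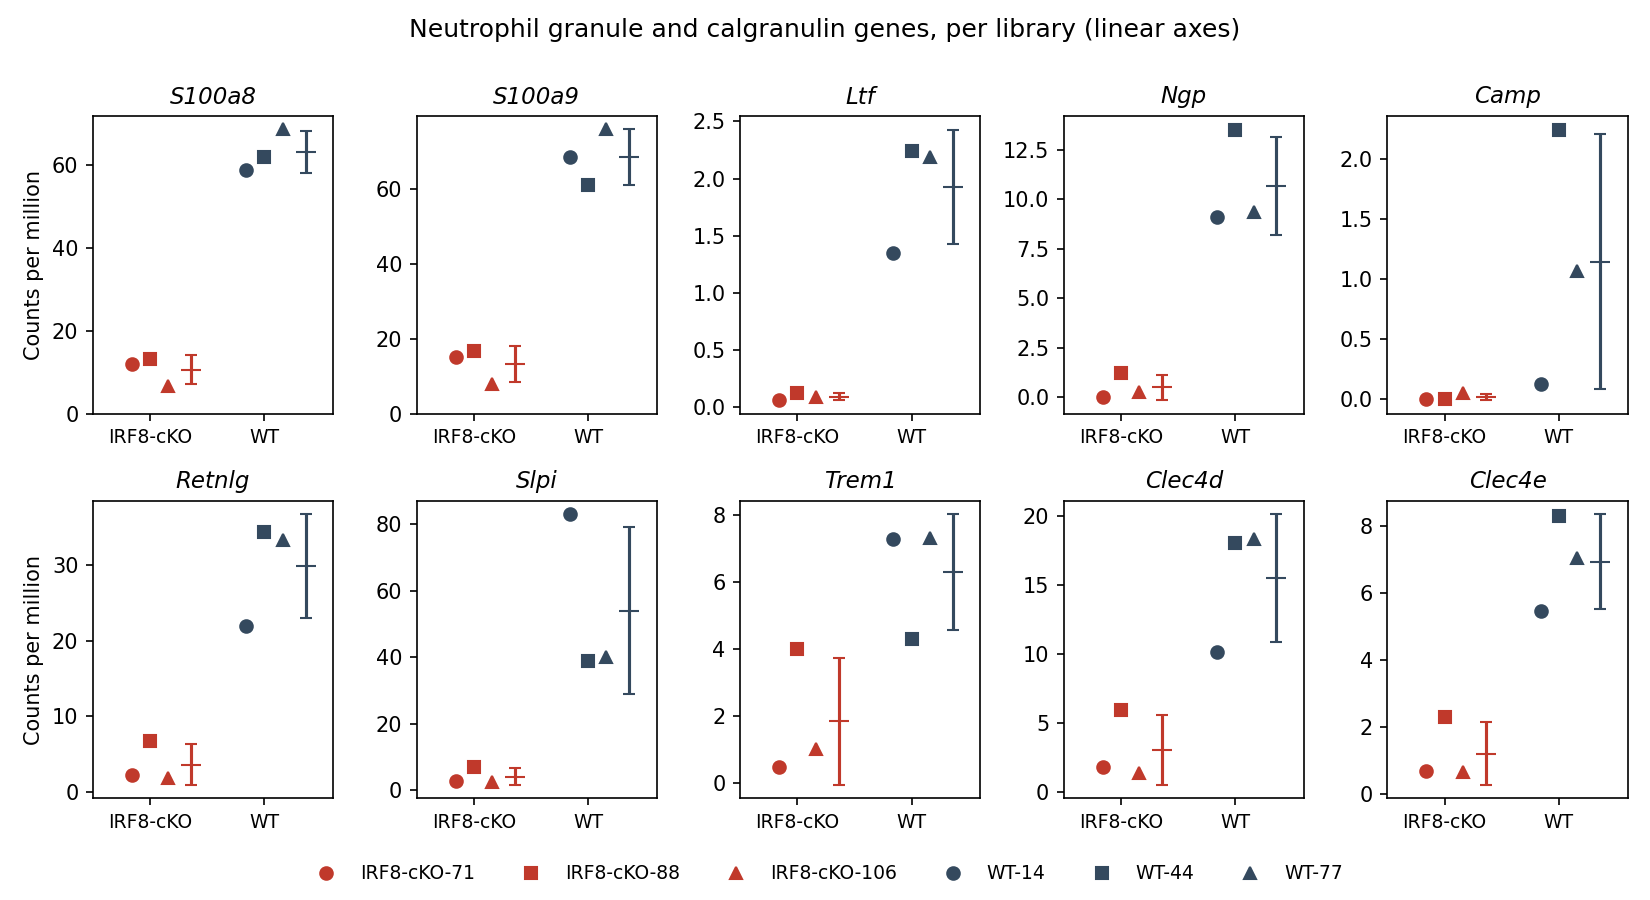
CPM (linear vertical axes, one panel per gene) of the 10 genes in 3 IRF8-cKO libraries (red, left) and 3 WT libraries (blue, right), with each group's mean and SD at its right. S100a8 sits between 6.66 and 13.2 CPM in IRF8-cKO and between 58.8 and 68.6 CPM in WT, while for Trem1 the highest IRF8-cKO library (4.004 CPM) nearly reaches the lowest WT library (4.31 CPM).

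The granule genes Ltf, Ngp and Camp had the lowest ratios of IRF8-cKO to WT and the fewest reads in IRF8-cKO. Ltf encodes lactoferrin, an iron-binding protein of secondary granules, and had 1, 2 and 2 reads in IRF8-cKO-71, in IRF8-cKO-88 and in IRF8-cKO-106, against 22, 26 and 33 reads in WT-14, in WT-44 and in WT-77. These reads correspond to 0.0924 ± 0.0308 CPM in IRF8-cKO and 1.93 ± 0.503 CPM in WT (SD, n = 3 each). Every IRF8-cKO library was at the edge of detection, and the groups did not overlap. Ltf fell (log2 fold change -4.27 ± 0.64 SE, adjusted p = 0.0311 in edgeR's test). From the summed reads, scaled for library size, the ratio of IRF8-cKO to WT was 0.0491, with an exact 95% interval of 0.0155 to 0.119 that covers counting error only.

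Ngp, the neutrophilic granule protein, is a secondary granule protein related to the cathelicidins and cystatins. It had 0, 20 and 6 reads in IRF8-cKO-71, in IRF8-cKO-88 and in IRF8-cKO-106, against 149, 157 and 141 reads in WT-14, in WT-44 and in WT-77. The IRF8-cKO libraries spread from 0 to 1.23 CPM, below the WT libraries at 9.12 to 13.5 CPM. A count of 0 in IRF8-cKO-71 allows up to 0.185 CPM (3 reads). Ngp fell (log2 fold change -4.41 ± 0.87 SE, adjusted p = 0.0495 in edgeR's test), and the ratio of summed scaled reads, IRF8-cKO over WT, was 0.0463 (exact 95% counting interval 0.0299 to 0.0687). The fitted value also depends on the prior count where a library is at 0. Without IRF8-cKO-88 it was -6.05 and without IRF8-cKO-71 it was -3.85.

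Camp encodes CRAMP, the cathelicidin antimicrobial peptide of mouse. It had 0, 0 and 1 reads in IRF8-cKO-71, in IRF8-cKO-88 and in IRF8-cKO-106, against 2, 26 and 16 reads in WT-14, in WT-44 and in WT-77. Most of its reads came from WT-44 and WT-77, and WT-14 stood close to the IRF8-cKO libraries. The ratio of summed scaled reads, IRF8-cKO over WT, was 0.0181 with an exact 95% counting interval of 0.000447 to 0.106. The gene did not reach the filter and has no place in the test on all 6 libraries.

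Retnlg, the resistin-like gamma gene, is expressed in mature neutrophils and bone marrow. It stood at 2.28, 6.71 and 1.85 CPM in IRF8-cKO-71, in IRF8-cKO-88 and in IRF8-cKO-106, against 22.0, 34.4 and 33.3 CPM in WT-14, in WT-44 and in WT-77. IRF8-cKO-88 was the highest of its group and WT-14 the lowest of its own, and the groups did not overlap. Retnlg fell (log2 fold change -3.05 ± 0.49 SE, adjusted p = 0.0345 in edgeR's test), or -3.85 without IRF8-cKO-88.

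Slpi encodes secretory leukocyte peptidase inhibitor, which blocks neutrophil elastase and cathepsin G and is also made by epithelia. It stood at 2.77, 6.96 and 2.498 CPM in IRF8-cKO-71, in IRF8-cKO-88 and in IRF8-cKO-106, against 83.0, 38.9 and 40.0 CPM in WT-14, in WT-44 and in WT-77. WT-14 had more Slpi than either other WT library, whereas for Retnlg, Ltf, Ngp and the C-type lectins WT-14 was the lowest in WT. Slpi fell (log2 fold change -3.73 ± 0.49 SE, adjusted p = 0.0243 in edgeR's test), or -4.35 without IRF8-cKO-88. Epithelial markers stood lower beside it. Over all genes tested 14.5% were lower in every IRF8-cKO library, and of 9 tested cholangiocyte genes, from the bile duct lining, 8 were. In edgeR's test 0 of them passed and 8 were lower at an unadjusted p under 0.05, while DESeq2 called 6 lower and limma-voom 0. Of all 13134 genes tested, 3170 had such an unadjusted p, in either direction, and DESeq2 called 810 lower and limma-voom 88. The summed level of all 13 listed cholangiocyte genes was 171 to 316 CPM in IRF8-cKO and 608 to 1129 CPM in WT. The median log2 fold change of those tested was -1.70. The sum was highest in WT-14, like Slpi, through Spp1 (853 of 1129 CPM there), whereas Krt19 and Epcam were highest in WT-77. Krt19 stood at -3.47 (SE 0.75, adjusted p = 0.0551, and -2.21 without WT-77) and Epcam at -2.48 (adjusted p = 0.0602), both in edgeR's test. The part of bile duct cells in the Slpi result was not tested.

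Each of the 3 receptor genes stood highest of its group in IRF8-cKO-88, and 0 passed edgeR's test on all libraries, although all 3 had an unadjusted p under 0.05 and DESeq2 called the lectins. Clec4e encodes Mincle, a receptor for products of dead cells and for microbial glycolipids. It stood at 0.677, 2.28 and 0.648 CPM in IRF8-cKO-71, in IRF8-cKO-88 and in IRF8-cKO-106, against 5.45, 8.28 and 7.03 CPM in WT-14, in WT-44 and in WT-77, a difference of -2.53 on the log2 scale (SE 0.55, adjusted p = 0.0532 in edgeR's test). Clec4d, encoding the partner lectin MCL, stood at 1.85, 5.98 and 1.39 CPM in IRF8-cKO-71, in IRF8-cKO-88 and in IRF8-cKO-106, against 10.2, 18.02 and 18.3 CPM in WT-14, in WT-44 and in WT-77. Its log2 fold change was -2.34 ± 0.55 SE (adjusted p = 0.0623 in edgeR's test). Both lectins missed the threshold narrowly, and their profiles were the next most alike after the calgranulins, with a root mean square difference of 0.192.

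Trem1 amplifies inflammatory signals of neutrophils and monocytes through the adaptor encoded by Tyrobp. It stood at 0.493, 4.004 and 1.02 CPM in IRF8-cKO-71, in IRF8-cKO-88 and in IRF8-cKO-106, against 7.28, 4.31 and 7.30 CPM in WT-14, in WT-44 and in WT-77. IRF8-cKO-88 nearly met WT-44, the lowest WT library, which stood 1.08 times above it. That order came from the TMM adjustment, with factors of 0.991 for IRF8-cKO-88 and 0.786 for WT-44. IRF8-cKO-88 had 65 Trem1 reads of 16385964 and WT-44 had 50 of 14758237. Scaled by library totals alone, IRF8-cKO-88 stood above WT-44. The log2 fold change was -1.78 ± 0.67 SE (adjusted p = 0.151 in edgeR's test). Without IRF8-cKO-88 all 3 receptors passed edgeR's test, at -3.03 for Trem1 (adjusted p = 0.0112), -3.26 for Clec4d (adjusted p = 0.0053) and -3.37 for Clec4e (adjusted p = 0.00595). Calls grew over the whole table in that fit, to 630 lower and 575 higher of 13652 genes tested. On all libraries they were 123 and 59 of 13134.

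**Figure D2:**
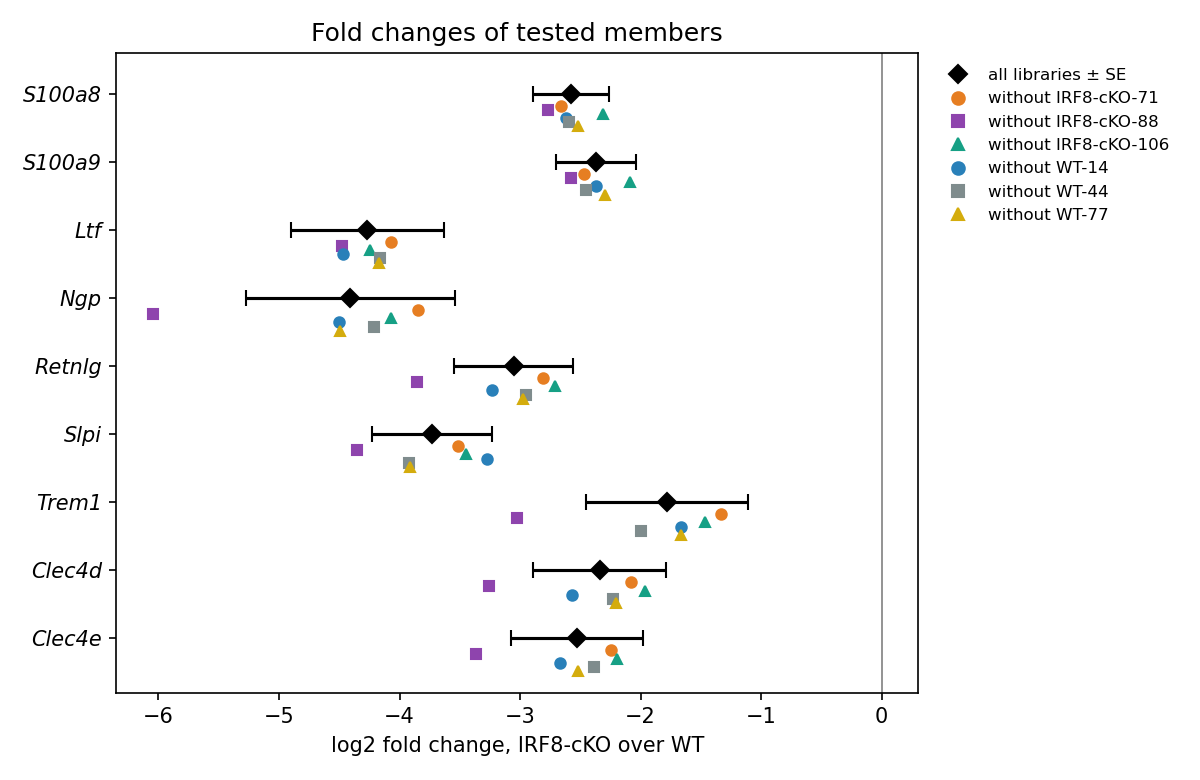
Log2 fold changes of IRF8-cKO over WT (horizontal axis) for the 9 tested genes, with all libraries (black diamonds, bars are SE) and with each library left out in turn (coloured symbols). All values lie below 0, from -1.34 for Trem1 without IRF8-cKO-71 to -6.05 for Ngp without IRF8-cKO-88, and leaving out IRF8-cKO-88 gives the most negative value for each of the 9 genes.

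IRF8-cKO-88 held more of most of these transcripts than the other IRF8-cKO libraries. Its level was 1.43 times the mean of IRF8-cKO-71 and IRF8-cKO-106 for S100a8 and 1.46 times for S100a9, but 2.64 times for Slpi, 3.25 times for Retnlg, 3.44 times for Clec4e, 3.69 times for Clec4d, 5.30 times for Trem1 and 8.88 times for Ngp. The calgranulins made up a different share of the reads of the 10 genes in each IRF8-cKO library: 76.9% in IRF8-cKO-71 (Wilson 95% interval 73.3 to 80.2), 52.4% in IRF8-cKO-88 (49.2 to 55.6) and 65.0% in IRF8-cKO-106 (60.7 to 69.1). In WT-14, in WT-44 and in WT-77 the share was 47.9% (46.4 to 49.4), 50.2% (48.3 to 52.0) and 55.0% (53.4 to 56.5). The share in IRF8-cKO-88 lay within the WT range, and those of the other 2 IRF8-cKO libraries lay above it. The intervals cover counting error only.

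**Figure D3:**
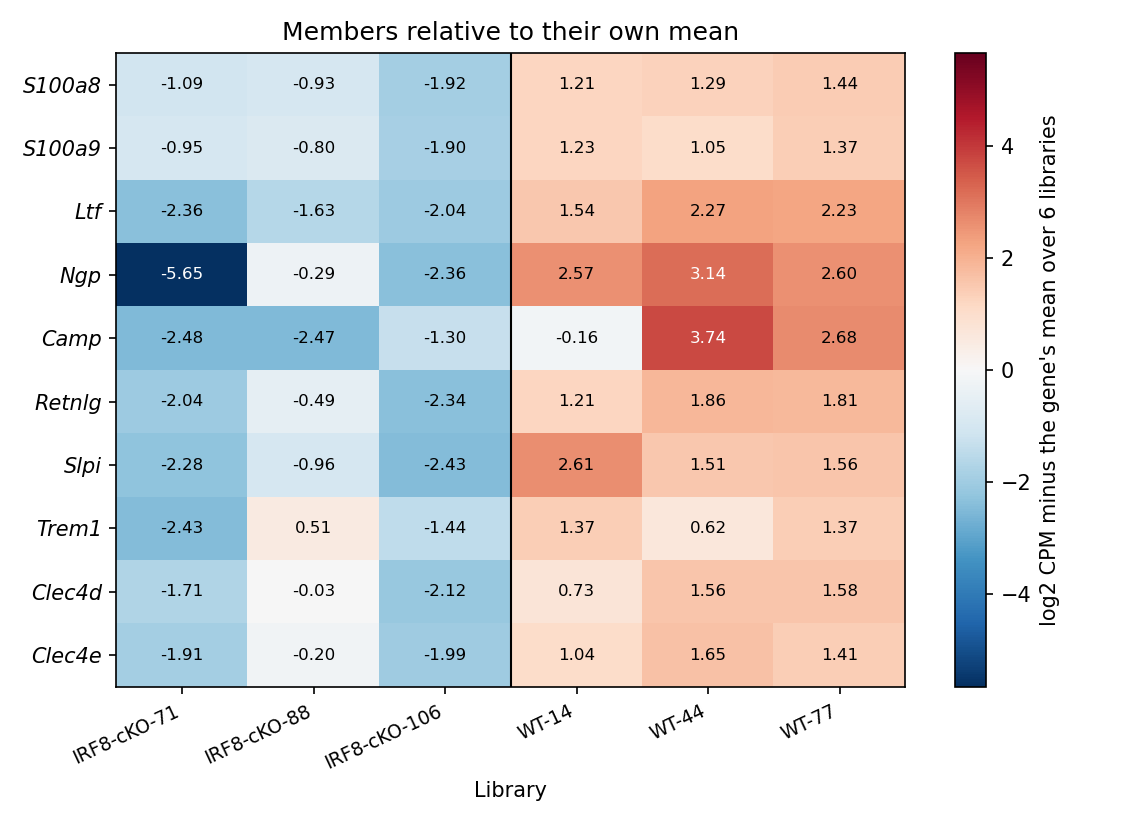
Log2 CPM of each of the 10 genes (rows) in each library (columns) minus the mean of that gene over the 6 libraries, on a colour scale from blue (below the mean) to red (above). S100a8 and S100a9 have their lowest value in IRF8-cKO-106 (-1.92 and -1.90), whereas Ngp is lowest in IRF8-cKO-71 (-5.65) and Trem1 is above its mean in IRF8-cKO-88 (0.51).

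Relative to S100a8 within the same library, Ltf and Ngp had fewer reads in IRF8-cKO than in WT. The log2 ratio of S100a8 to Ltf reads was 6.43 ± 0.58 in IRF8-cKO and 5.04 ± 0.34 in WT, and that of S100a8 to Ngp was 5.49 ± 2.75 and 2.58 ± 0.35 in the same order (SD, n = 3 each, 0.5 added to each count). Neither ratio overlapped between the groups, and both depend on few reads in IRF8-cKO. The ratio to Slpi did not overlap either, at 1.47 ± 0.58 in IRF8-cKO and 0.32 ± 0.71 in WT. Ratios to Retnlg, Camp, Trem1, Clec4d and Clec4e overlapped. Against Ptprc, the pan-leukocyte gene CD45, S100a8 was lower in every IRF8-cKO library: the log2 ratio was 0.36 ± 0.20 in IRF8-cKO and 2.69 ± 0.28 in WT. Ptprc itself stood at 4.90 to 10.8 CPM in IRF8-cKO and 7.85 to 12.9 CPM in WT and did not pass (log2 fold change -0.26, SE 0.38, adjusted p = 0.713 in edgeR's test, and 0.029 without IRF8-cKO-106). Against Csf3r, the receptor for granulocyte colony-stimulating factor, the log2 ratio was 1.55 ± 0.24 in IRF8-cKO and 2.94 ± 0.55 in WT, again without overlap. These ratios are descriptions without a test.

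**Figure D4:**
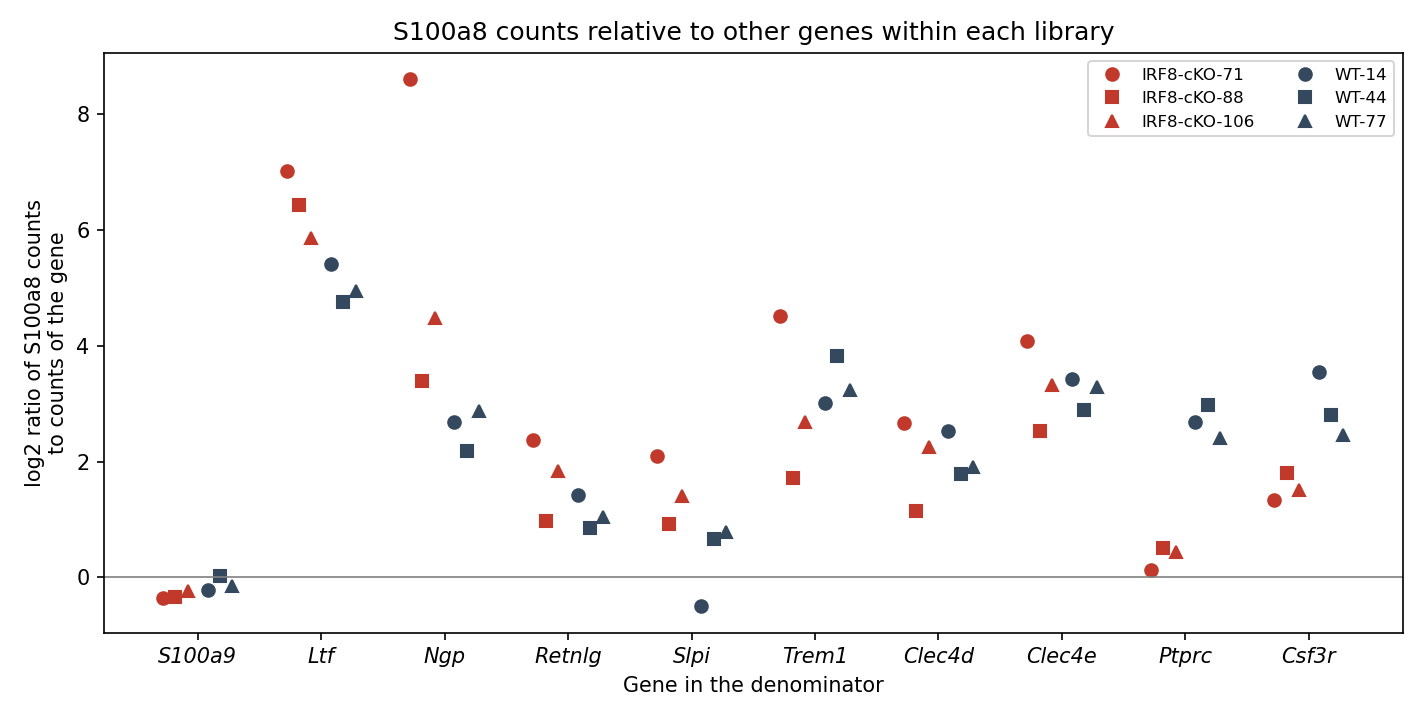
Log2 ratio of S100a8 counts to the counts of another gene within each library (vertical axis; 0.5 added to each count), for 3 IRF8-cKO libraries (red) and 3 WT libraries (blue). Ratios to Ptprc and Csf3r are lower in every IRF8-cKO library, ratios to Ltf, Ngp and Slpi are higher in every IRF8-cKO library, and those to Clec4d and Clec4e overlap.

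Levels were compared between genes per kilobase of gene model. In WT, S100a9 led with 131 ± 14.5 CPM per kb, followed by S100a8 (90.9 ± 7.27), Retnlg (50.4 ± 11.6) and Slpi (45.7 ± 21.3), then Clec4d (9.69 ± 2.89), Ngp (8.73 ± 2.03), Trem1 (2.10 ± 0.574), Camp (1.51 ± 1.40), Clec4e (1.39 ± 0.286) and Ltf (0.558 ± 0.146), all mean CPM per kb ± SD over 3 libraries. In IRF8-cKO the first 5 kept this order, at 25.4 ± 9.12 CPM per kb for S100a9, 15.3 ± 5.01 for S100a8, 6.10 ± 4.54 for Retnlg, 3.45 ± 2.12 for Slpi and 1.92 ± 1.58 for Clec4d. Trem1 (0.614 ± 0.632) stood above Ngp (0.412 ± 0.529) there, and Clec4e (0.242 ± 0.188), Ltf (0.0268 ± 0.00893) and Camp (0.0203 ± 0.0352) followed. In WT, the libraries of neighbours in the order overlapped for Retnlg and Slpi, for Clec4d and Ngp, for Trem1 and Camp, and for Camp and Clec4e. In IRF8-cKO, every pair of neighbours overlapped across libraries except Clec4e and Ltf. Within each IRF8-cKO library, though, the first 5 genes stood in this same order.

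Other genes of the neutrophil and of these pathways were followed from lists. Beside the counts of every list stand those over all 13134 genes tested. Of these, 3170 had an unadjusted p under 0.05 in edgeR's test, in either direction, and 48.5% had a negative log2 fold change. DESeq2 called 810 of all genes lower and 613 higher, and limma-voom 88 and 23. Of 209 further listed genes 153 were tested, and 5 of these fell and 0 rose in edgeR's test (adjusted p under 0.05). These calls are fragile: 0 listed genes were called lower with library totals as the only scaling, or without any 1 of IRF8-cKO-71, IRF8-cKO-106, WT-44 and WT-77, while 32 of 158 tested were without IRF8-cKO-88 and 34 of 153 by DESeq2. Without IRF8-cKO-88, 630 of 13652 genes of the whole table were called lower. Among genes of mature neutrophils 1 of 23 fell in edgeR's test and 22 did not pass, with a median log2 fold change of -1.11, against 0.03 over all genes tested. At an unadjusted p under 0.05, 13 were lower and 1 higher, and DESeq2 called 8 lower and limma-voom 1. The gene that fell was Mxd1, a MAX-binding repressor abundant in neutrophils, at 6.34, 9.73 and 6.29 CPM in IRF8-cKO-71, in IRF8-cKO-88 and in IRF8-cKO-106, against 19.6, 21.7 and 31.7 CPM in WT-14, in WT-44 and in WT-77 (log2 fold change -1.71, SE 0.32, adjusted p = 0.0446). Of the 23 genes, 12 stood lower in every IRF8-cKO library, against 14.5% of all genes, and 1 stood higher in every IRF8-cKO library, against 14.4%. That gene, Pilra, encodes an inhibitory receptor of myeloid cells and had 4.19, 1.05 and 0.879 CPM in IRF8-cKO-71, in IRF8-cKO-88 and in IRF8-cKO-106, against 0.796, 0.690 and 0.398 CPM in WT-14, in WT-44 and in WT-77 (log2 fold change 1.68, adjusted p = 0.186 in edgeR's test, and 0.62 without IRF8-cKO-71).

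Of 10 other tested genes of secondary and tertiary granules 0 passed edgeR's test, 6 had negative log2 fold changes and the median was -0.56. At an unadjusted p under 0.05, 4 were lower, and DESeq2 called 3 lower and limma-voom 0. Cd177, a neutrophil surface protein stored in secondary granules, stood at 0 to 0.370 CPM in IRF8-cKO and 2.33 to 3.19 CPM in WT (log2 fold change -3.82, SE 0.80, adjusted p = 0.0512, and 0.0170 without IRF8-cKO-88), and Mmp9, gelatinase B, stood at -1.38 (adjusted p = 0.0955). Lcn2, a secondary granule protein that injured hepatocytes also make, reached 759 to 4612 CPM in IRF8-cKO and 985 to 3350 CPM in WT, and stood at 0.19 (adjusted p = 0.877, all in edgeR's test), or at -0.53 without IRF8-cKO-71 and -0.18 without WT-77. Primary granule genes were barely present. Of 9 listed, 8 are in the file and 1 was tested, Prtn3, encoding proteinase 3 (log2 fold change 1.21, SE 1.35, adjusted p = 0.613), which had 148, 0 and 12 reads in IRF8-cKO-71, in IRF8-cKO-88 and in IRF8-cKO-106 and 9, 23 and 25 reads in WT-14, in WT-44 and in WT-77. Its value rested on IRF8-cKO-71 and stood at -2.19 without it (adjusted p = 0.240). Mpo, encoding myeloperoxidase, had 0 or 1 reads per library and Bpi had 0 in every library.

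Among 6 tested S100 genes other than the calgranulins, 1 fell in edgeR's test and 5 did not pass, with a median of -0.93. At an unadjusted p under 0.05, 5 were lower, and DESeq2 called 2 lower and limma-voom 0. S100a11, a widely expressed family member, fell (log2 fold change -1.62 ± 0.30 SE, adjusted p = 0.0446 in edgeR's test). Of the genes for receptors of the calgranulins and their signalling, 0 of 9 passed in edgeR's test and by limma-voom, 1 was higher at an unadjusted p under 0.05 and by DESeq2, and the median was 0.21. Cd36 stood at 1.65 (adjusted p = 0.101, and 0.86 without IRF8-cKO-71). Of 14 genes for ITAM adaptors and Card9 signalling, the pathway used by Trem1, Clec4d and Clec4e, 0 passed in edgeR's test and 13 had negative log2 fold changes, with a median of -0.57. Of these 3 were lower at an unadjusted p under 0.05, 1 by DESeq2 and 0 by limma-voom. Tyrobp averaged 6.83 CPM in IRF8-cKO and 11.9 CPM in WT (log2 fold change -0.80, adjusted p = 0.195). Related Trem and Clec4 receptor genes gave 0 passing of 12 by edgeR, DESeq2 and limma-voom and a median of 0.84, with 2 lower and 3 higher at an unadjusted p under 0.05. In the family of antiproteases around Slpi, 1 of 9 fell in edgeR's test, with 4 lower and 1 higher at an unadjusted p under 0.05, 2 lower by DESeq2 and 1 by limma-voom. The gene that passed was Wfdc2, an epithelial whey acidic protein gene on chromosome 2 like Slpi, and its level differed by -2.18 on the log2 scale (SE 0.39, adjusted p = 0.0408 in edgeR's test).

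Among transcription factors of granulocyte development, 0 of 11 passed and 10, Irf8 among them, had negative log2 fold changes, with a median of -0.72. At an unadjusted p under 0.05, 4 were lower, and DESeq2 called 2 lower and limma-voom 0. Cebpb, which drives emergency granulopoiesis and is also expressed in hepatocytes, stood at -1.79 (SE 0.41, adjusted p = 0.0583), and Cebpd at -1.83 (adjusted p = 0.063, both in edgeR's test). Cebpe, the factor most tied to secondary granule genes, had 4.87, 0 and 0.787 CPM in IRF8-cKO-71, in IRF8-cKO-88 and in IRF8-cKO-106, against 1.35, 0.862 and 2.06 CPM in WT-14, in WT-44 and in WT-77. Its log2 fold change of 0.39 (adjusted p = 0.861 in edgeR's test) rested on IRF8-cKO-71 and was -1.76 without it.

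**Figure D5:**
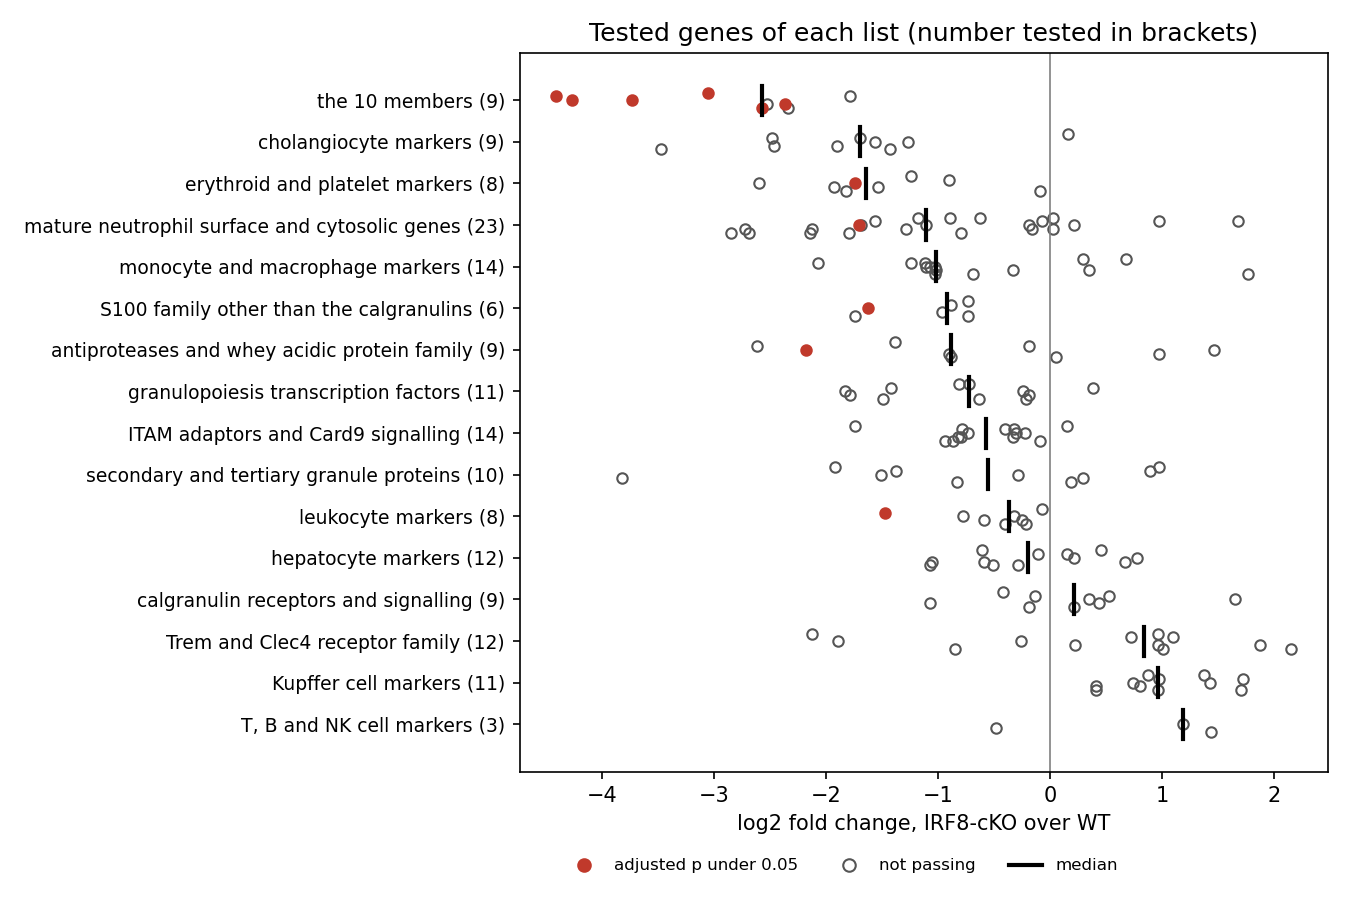
Log2 fold changes of IRF8-cKO over WT (horizontal axis) for the tested genes of each list (rows, with the number tested), filled red where the adjusted p was under 0.05 and with a black bar at the median. The 9 tested members have a median of -2.57, the cholangiocyte markers -1.70 and the mature neutrophil genes -1.11, while the Kupffer cell markers have a median of 0.96.

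Markers of other cells that can hold these transcripts varied beside them. Of 14 tested monocyte and macrophage markers 0 passed in edgeR's test, with a median of -1.02. At an unadjusted p under 0.05, 5 were lower and 1 higher, and DESeq2 called 1 lower and 1 higher and limma-voom 0. Their summed level over 16 genes was 180 to 999 CPM in IRF8-cKO and 579 to 1166 CPM in WT. In the WT libraries and in IRF8-cKO-88 most of it was Cd14, which stood at 42.9, 841.9 and 77.6 CPM in IRF8-cKO-71, in IRF8-cKO-88 and in IRF8-cKO-106, against 388, 669 and 968 CPM in WT-14, in WT-44 and in WT-77 (log2 fold change -1.07, adjusted p = 0.524 in edgeR's test, and -3.48 with adjusted p = 0.00595 without IRF8-cKO-88). IRF8-cKO-88, the library with the highest Trem1, Clec4d and Clec4e of its group, was also the highest of its group in Cd14. Kupffer cell markers ran the other way, with all 11 at positive log2 fold changes, 0 of 11 passing in edgeR's test and by limma-voom, 6 higher at an unadjusted p under 0.05 and 3 by DESeq2, and summed levels of 193 to 404 CPM in IRF8-cKO and 121 to 148 CPM in WT. Adgre1, the macrophage gene encoding F4/80, stood at 1.76 (adjusted p = 0.0797). Of 8 general leukocyte genes 1 fell in edgeR's test, at an unadjusted p under 0.05 and by DESeq2 (0 by limma-voom), Coro1a (log2 fold change -1.48, SE 0.31, adjusted p = 0.0495), and the summed levels were 46.2 to 97.5 CPM in IRF8-cKO and 94.7 to 118 CPM in WT. Among 8 erythroid and platelet genes 1 fell in edgeR's test, Hba-a2 (log2 fold change -1.74, SE 0.36, adjusted p = 0.0495). All 8 had negative log2 fold changes, against 48.5% of all genes tested. Of the 8, 7 stood lower in every IRF8-cKO library, against 14.5% of all genes. The median was -1.64, close to that of the cholangiocyte list. At an unadjusted p under 0.05, 7 were lower, and DESeq2 called 7 lower and limma-voom 0. The summed levels were 105 to 158 CPM in IRF8-cKO and 232 to 334 CPM in WT. The near-identical haemoglobin gene copies may share reads. Lymphocyte markers were near the limit of detection, with 3 of 12 tested, 0 passing by edgeR, DESeq2 or limma-voom or at an unadjusted p under 0.05, and summed levels of 3.52 to 6.41 CPM in IRF8-cKO and 2.63 to 6.29 CPM in WT. The part of macrophages, leukocytes in general or trapped blood in the lower neutrophil genes was not tested.

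The genes whose profile over the 6 libraries lay nearest to the mean profile of a pair of members were found by the root mean square difference of centred log2 CPM. For the mean of S100a8 and S100a9 the nearest protein-coding genes were Napsa, an aspartic peptidase (difference 0.178), Rgcc (0.248), Ackr1, an atypical chemokine receptor (0.260), Hmgb2, a chromatin protein (0.317), and Slfn1 (0.320). These genes were selected for following S100a8 and S100a9 across both groups, so that they are lower in IRF8-cKO is given by the choice and no test is read from it. For the mean of Ltf and Ngp they were the chemokine genes Cxcl2 (0.372) and Cxcl3 (0.419), then Akap12 (0.555), Clec2h (0.582) and Tmem252 (0.664). That mean describes neither gene closely, since the profiles of Ltf and Ngp differed from each other by 1.56. It also rests on few reads: Ngp had 0 in IRF8-cKO-71, where its log2 CPM was set by the 0.5 added to the count. Cxcl2 stood at 0.554, 8.07 and 2.18 CPM in IRF8-cKO-71, in IRF8-cKO-88 and in IRF8-cKO-106, against 45.5, 96.8 and 101.7 CPM in WT-14, in WT-44 and in WT-77. It too was selected for its profile, and like Ngp it was lowest in IRF8-cKO-71 and, within its group, highest in IRF8-cKO-88.

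The calls depended on single libraries. Of the 6 members that passed, 0 passed when WT-44 was left out and 0 when WT-77 was, where 0 and 0 genes of the whole table were called lower, while 9 and 8 members then had an unadjusted p under 0.05. Without IRF8-cKO-106 S100a8 alone of the members passed (adjusted p = 0.0383 in edgeR's test), where 7 of 13492 genes tested were called lower. Without IRF8-cKO-88 all 9 members tested on all libraries passed, while Camp, tested there too, did not (adjusted p = 0.0555 in edgeR's test). Calls grew over the whole table in that fit, with 630 of 13652 genes tested called lower, against 123 of 13134 on all libraries. Without WT-14 the count of members stayed at 6, but Camp passed (adjusted p = 0.0439 in edgeR's test) and Ngp did not. There 107 of 13614 genes tested were called lower. The direction stayed negative for all 9 tested members in each of these fits, and the sizes moved unequally. With 1 library left out, log2 fold changes ran from -2.77 to -2.31 for S100a8, from -2.58 to -2.09 for S100a9 and from -4.48 to -4.07 for Ltf. The ranges were wider for the other 6, which each moved by over 1.5 times without IRF8-cKO-88: from -6.05 to -3.85 for Ngp, from -3.85 to -2.71 for Retnlg, from -4.35 to -3.28 for Slpi, from -3.03 to -1.34 for Trem1, from -3.26 to -1.96 for Clec4d and from -3.37 to -2.20 for Clec4e.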

How the data were processed

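RNA of the injured lobe was extracted with Trizol and made into libraries with an NEBNext Ultra RNA kit, per the labels' protocols. Alignment tool HISAT2 (version 2.0.5), counting tool featureCounts (version 1.5.0-p3) and genome mm10 are listed, per the submitters' processing notes. The values are raw, unnormalised counts per gene as the authors deposited them, with gene length in bases as a further deposited value. No source used here gives the annotation release, the strand setting or how multiply mapped reads were treated. All 10 members have the same start, end and exon length in GENCODE M21. Columns were tied to samples by title, and 0 value columns were left without a sample.

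Within a group, counts of any 2 libraries gave a chi-square of at least 69.9 per degree of freedom, so none is a repeat of another. edgeR 4.0.16 in R 4.3.3 was used with TMM scaling, filterByExpr (minimum count 10, minimum total 15, a cutoff of 0.617 CPM in 3 libraries), robust quasi-likelihood fitting on group alone, and two-sided tests. Benjamini-Hochberg adjustment ran over all 13134 genes tested of 24095 with a read, at a threshold of 0.05. The log2 fold change is IRF8-cKO over WT, and its SE was derived from the F statistic (|log2 fold change| over root F). The procedure was run on simulated counts with known changes, to check the direction and median error of the fold changes. That run does not cover the dependence of calls on single libraries. Alternatives were other scalings and filters, DESeq2 1.42.0, limma-voom (limma 3.58.1), no robust shrinkage and each library left out. Promoter windows are from RefSeq (GRCm38.p6), where 10 of 10 members matched.

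The members and lists were chosen with earlier results of these data known. Named genes are the members, Irf8, Ptprc, up to 4 genes of each list with adjusted p under 0.05 (or else the 2 with the lowest p, of which some are given), and the 5 protein-coding genes with a mean log2 CPM of at least 0 whose profiles were most alike. Csf3r, Cxcr2, Ly6g, Fpr1, Cxcr1, Pilra, Spp1, Tyrobp, Lcn2, Mpo, Bpi, Cebpe and Cd14 lie outside that rule and were chosen after their values were seen.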

Additional observations from a re-analysis of the deposited data

How the results depend on the processing

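No paired analysis was possible because the groups share no replicate number. The log2 fold changes of the 9 tested members were negative in all 72 values under other settings and in all 54 with a library left out. The count of members called lower was 6 under 5 of the 8 other settings, 7 with limma-voom, 8 with DESeq2 (Trem1 adjusted p = 0.0514) and 10 without the low-count filter, and ran from 0 to 9 with a library left out; Camp then passed only without WT-14 (adjusted p = 0.0439). Over all genes, 123 lower and 59 higher calls became 43 and 39 with library totals, 906 and 817 without the filter, 810 and 613 with DESeq2, and 88 and 23 with limma-voom. Lower calls were 67.6% of calls with TMM and 52.4% with library totals, which moved the median of all genes from 0.03 to 0.25. With a library left out, lower calls ran from 0 to 630 and higher calls from 0 to 575. Calls among the other listed genes were 5 lower and 0 higher of 153 tested. They were 3 lower with median-of-ratios scaling and without robust shrinkage, 2 with limma-voom and 0 with library totals, 34 lower and 5 higher with DESeq2, and 35 lower and 10 higher without the filter, where 201 were tested. With a library left out, where 156 to 159 were tested, they ran from 0 to 32 lower and from 0 to 3 higher. The lymphocyte list's median of 1.19 became -0.10 without the filter. Uncalled values changed sign for Prtn3, at -1.15 with limma-voom and from -2.19 (without IRF8-cKO-71) to 1.79 with a library left out, for Cebpe, at -1.46 with limma-voom and from -1.76 (without IRF8-cKO-71) to 0.96 with a library left out, for Lcn2, from -0.53 (without IRF8-cKO-71) to 0.64, and for Ptprc, from -0.48 to 0.029 (without IRF8-cKO-106). The cause of these changes was not tested. The S100a8 to S100a9 difference of -0.19 kept its sign with 2 counts added and with each library left out. At this depth Camp, Ltf and Ngp rest on few reads in IRF8-cKO.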
